A study of Mus musculus with 16 samples.

Results

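The metallothioneins and the reactive astrocyte genes considered here were 7 genes, Mt1, Mt2, Mt3, Gfap, Vim, Serpina3n and S100b, taken by name from the deposited table of 19999 genes, and all 7 were present. Single-nucleus RNA-Seq was performed on the medial prefrontal cortex of 16 male mice aged 22 weeks, in 4 groups of 4, and yielded 114512 nuclei and 216742276 unique molecular identifiers (UMIs, each standing for 1 captured RNA molecule). 3xTg-AD mice carry human transgenes for APP with the Swedish mutation and tau with the P301L mutation, and a PS1 M146V knock-in, on a mixed B6;129 background, and the wild-type (WT) mice were of the B6;129 background. WT alcohol and 3xTg-AD alcohol mice received ethanol with pyrazole, an inhibitor of alcohol dehydrogenase, before repeated cycles of alcohol vapor, and were sampled in protracted withdrawal, whereas WT control and 3xTg-AD control mice received pyrazole and breathed air. All groups had been trained in the Morris water maze. The comparisons address how the genotype, the alcohol exposure and both together relate to the prefrontal transcriptome. The transgenes are under the Thy1 promoter, so the model drives them mainly in neurons. Genotype cannot be told apart from other sequence differences between the mutant and WT lines, and the genotype labels could not be checked against the human transgenes, which are not among the genes of the mouse table.

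Metallothioneins are small cysteine-rich proteins that bind zinc and copper and buffer oxidative stress. Mt1 and Mt2 are induced by zinc through the metal-responsive transcription factor MTF1, and also by glucocorticoids and inflammatory signals, whereas Mt3 is the brain-enriched form and responds weakly to metals. In reactive astrocytes the intermediate filament proteins encoded by Gfap and Vim increase, together with the secreted protease inhibitor encoded by Serpina3n. S100b encodes a calcium-binding protein of astrocytes and the oligodendrocyte lineage.

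In the GENCODE annotation of the GRCm38 (mm10) genome the 3 metallothionein genes lay in a row on the plus strand of chromosome 8. Mt3 spanned 94152607 to 94154146, Mt2 94172664 to 94173568 and Mt1 94179082 to 94180327, with 18517 bases between Mt3 and Mt2 and 5513 between Mt2 and Mt1. Gfap was at 102887336 to 102900912 on the minus strand of chromosome 11, Vim at 13573927 to 13582826 on the plus strand of chromosome 2, Serpina3n at 104406729 to 104414329 on the plus strand of chromosome 12 and S100b at 76253853 to 76261159 on the plus strand of chromosome 10. Mt2 overlapped Gm45774, Gfap overlapped Gm26668 and S100b overlapped Dip2a, so reads in the shared stretches are uncertain for these pairs.

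The promoters of the metallothioneins are shown because metal-responsive elements are what MTF1 binds. The core of the element was searched as TGCACNC and TGCGCNC on both strands, and the matches are in capitals. The sequences are 240 bases each, 5′ to 3′ on the plus strand, from the RefSeq GRCm38.p6 promoters:
Mt1, chr8:94178839-94179078: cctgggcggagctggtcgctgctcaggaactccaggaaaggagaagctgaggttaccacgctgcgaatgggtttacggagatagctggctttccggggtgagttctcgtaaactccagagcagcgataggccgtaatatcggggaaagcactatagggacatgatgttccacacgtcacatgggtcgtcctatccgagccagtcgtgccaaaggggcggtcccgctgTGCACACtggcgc
Mt2, chr8:94172368-94172607: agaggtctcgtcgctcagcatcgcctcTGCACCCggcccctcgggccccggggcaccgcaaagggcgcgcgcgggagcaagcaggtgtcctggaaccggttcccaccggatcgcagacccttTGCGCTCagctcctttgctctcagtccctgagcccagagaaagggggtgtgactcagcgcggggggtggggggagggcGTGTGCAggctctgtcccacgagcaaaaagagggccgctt
Mt3, chr8:94152357-94152596: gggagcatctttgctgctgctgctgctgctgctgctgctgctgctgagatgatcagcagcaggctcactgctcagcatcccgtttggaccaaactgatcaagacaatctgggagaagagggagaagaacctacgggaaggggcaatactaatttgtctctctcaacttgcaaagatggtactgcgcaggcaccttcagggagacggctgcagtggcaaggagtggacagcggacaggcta
Mt1 held 1 match, beginning 23 bases before the RefSeq start, and Mt2 held 3, beginning 223, 128 and 50 bases before its RefSeq start, the last on the reverse strand. These RefSeq starts differ from the GENCODE gene starts given above. None of these letters was found in the Mt3 window, nor in those of Gfap, Vim, Serpina3n and S100b. Of 32851 promoters, 20.4% held at least 1 match and 1.18% held at least 3. The windows do not reach the bases just before the other annotated starts, at 94179211 and 94179241 for Mt1, 94172860 for Mt2 and 94152746 for Mt3. Matches there were not searched. The counts therefore hold for these windows only, and they do not rank Mt1 against Mt2 or against other promoters.

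Each mouse gave 4955 to 9096 nuclei and 9622031 to 17544364 UMIs. Nuclei were assigned to 9 classes from marker UMIs, none of which was a member, and 6427 nuclei (5.61%) were astrocytes, 240 to 625 per mouse. The neurons comprised 47995 glutamatergic and 5323 GABAergic nuclei, and 49293 nuclei (43.0%) were left unassigned. Of the 12 astrocyte rule markers, 11 were highest in the astrocytes, and Gjb6 was higher in vascular leptomeningeal cells (VLMC). Of 5 markers held out of the rule, Slc1a2, Aldh1l1, Cldn10 and Grin2c were highest in astrocytes, and Mertk measured 350 CPM (UMIs of the gene per 1000000 UMIs) there and 376 in microglia and perivascular macrophages. The held-out markers of the glutamatergic class did less well, as none of 3 was highest there: Nrgn measured 727 CPM in these neurons and 1531 in microglia, Camk2a 824 and 1272 in astrocytes, and Slc17a6 7.50 and 11.1 in endothelial cells. Rule markers of glutamatergic neurons summed to 3228 CPM in that class and to 785 to 1110 CPM in the glial and vascular classes, and those of astrocytes to 5518 CPM in astrocytes and 179 in glutamatergic neurons. A level in a class therefore can hold RNA from other cells, and how much of each member's level it makes up was not tested. Before the results, 3 libraries stood apart: WT control mice 26 and 27 and 3xTg-AD control mouse 12 held 29046, 19430.3 and 17914 CPM of Gm42418, an rRNA-overlapping transcript, against at most 4249 in the other mice. Mouse 27 also held 955 CPM of olfactory bulb and subventricular markers, against 298 to 458 in the others. Across libraries, 1694 barcodes occurred more than once, covering 3400 nuclei.

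Astrocytes held the highest level of Mt1, Mt2, Mt3, Gfap and Serpina3n, whereas Vim was highest in endothelial cells and S100b in oligodendrocyte precursor cells (OPC). Levels are given as CPM of the class in a mouse, and neighbouring classes in the order of the medians were compared over mice by a two-sided permutation test of sign flips, adjusted over 56 pairs, of which 9 passed. Mt1 had a median of 964 CPM over 16 mice in astrocytes (719 to 1588) and 528 in microglia, the next class, and was higher in astrocytes in 16 of 16 mice (adjusted p = 0.000342, permutation test). In neurons the Mt1 medians were 226 (GABAergic) and 204 (glutamatergic) CPM. Mt2 had a median of 289 CPM in astrocytes and 102 in mural cells, the next class (higher in 10 of 10 mice, adjusted p = 0.0156, permutation test). Mt3 medians were 637 CPM in astrocytes and 581 in microglia, which did not differ beyond their spread (higher in 13 of 16 mice, adjusted p = 0.106, permutation test), 441 in oligodendrocytes, 241 in GABAergic and 228 in glutamatergic neurons. Gfap had a median of 267 CPM in astrocytes (92.0 to 429) and 14.2 in microglia (adjusted p = 0.000342, permutation test).

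Vim, which endothelial cells are known to hold in quantity, had a median of 533 CPM in endothelial cells and 116 in VLMC over 11 mice (higher in 11 of 11 mice, adjusted p = 0.00911, permutation test). Mural cells and astrocytes followed at 109 and 62.8 CPM and did not differ from their neighbours above beyond the spread, and GABAergic neurons were at 5.37 CPM (16 of 16 mice, adjusted p = 0.000342, permutation test). S100b had a median of 197 CPM in OPC and 124 in astrocytes (higher in OPC in 16 of 16 mice, adjusted p = 0.000342, permutation test), and astrocytes did not differ from oligodendrocytes at 108 CPM (adjusted p = 0.106, permutation test). Serpina3n was low in all classes, with medians of 18.7 CPM in astrocytes and 14.2 in OPC that did not differ beyond their spread (adjusted p = 0.318, permutation test).

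**Figure D1:**
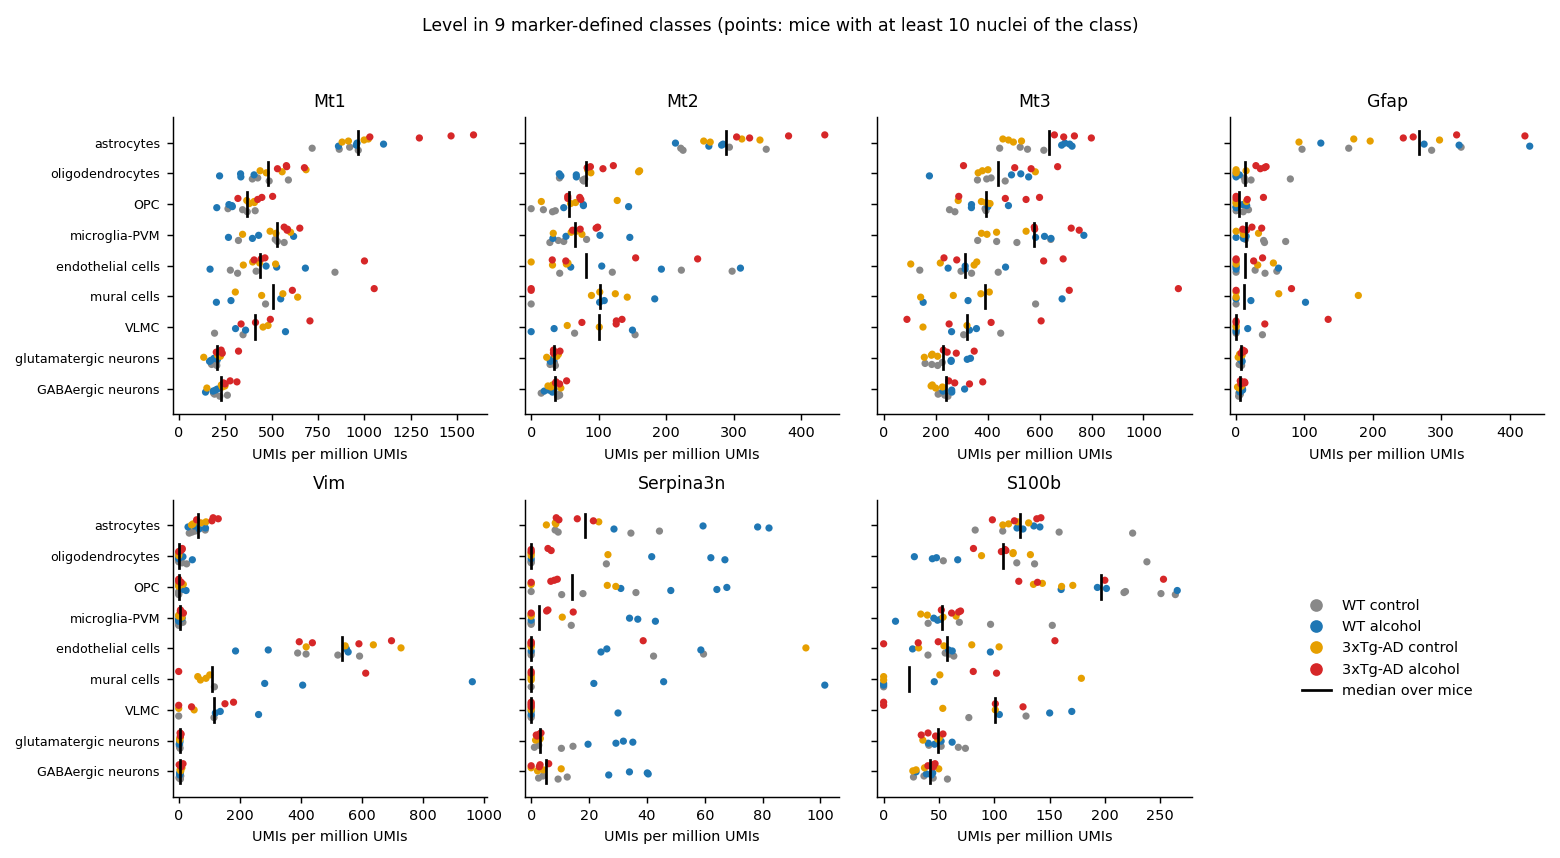
Level of each member (CPM, linear axis) in each nucleus class, with 1 point per mouse and the median. The panels place astrocytes at the top for Mt1, Mt2, Mt3, Gfap and Serpina3n, endothelial cells for Vim and OPC for S100b.

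The proportions among the metallothioneins were not the same in all classes. Mt1 had 1.70 UMIs per Mt3 UMI in astrocytes (1.19 to 2.42 over mice) and 0.850 in glutamatergic neurons (0.568 to 1.22). Mt1 per Mt2 was 3.57 in astrocytes and 6.18 in glutamatergic neurons. Among astrocyte nuclei of all groups pooled, the share with at least 1 UMI was 65.0% for Mt1, 53.3% for Mt3, 28.04% for Mt2, 14.8% for S100b, 11.5% for Gfap, 6.77% for Vim and 2.93% for Serpina3n. In WT alcohol mice Serpina3n, at a mean of 7.25%, came before Vim, at 5.55%. The median over mice for Mt3 was 52.2% in astrocytes and 39.8% in glutamatergic neurons, which were deeper (1170.25 against 2324 UMIs per nucleus), and 25.95% and 13.8% once each nucleus was thinned to 500 UMIs. For Gfap, which neurons should lack, the medians were 10.7% and 1.72%, and 5.75% and 0.532% after thinning. The top 5% of nuclei held 79.3% of the Gfap UMIs and 82.3% of the Vim UMIs, but 26.4% of those of Mt1. These top 5% were 321 nuclei, while 741 held a Gfap UMI, 435 a Vim UMI and 188 a Serpina3n UMI (share 100%). A low number of nuclei with a UMI raises this share by itself, so it does not show concentration.

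In the group comparisons, counts were summed per mouse and class, fitted over all genes with edgeR's quasi-likelihood test with 0.05 as the limit of the adjusted p for a call. Fold changes are on the log2 scale. In astrocytes 2 of 42 member tests were called, Mt1 in 3xTg-AD alcohol against WT control mice and Serpina3n in 3xTg-AD versus WT mice after alcohol, and 14 had an unadjusted p under 0.05 (DESeq2 called 2). The background over all 8771 genes tested was 0.673% called for 3xTg-AD alcohol versus WT control, 0.274% for genotype with alcohol, 0.114% for genotype without alcohol, 0.0912% for alcohol in 3xTg-AD mice and 0% for both alcohol in WT mice and the interaction. At an unadjusted p under 0.05 there were 1052, 722, 564, 626, 849 and 406 of these genes, in the same order. Of the 7 members 4, 4, 0, 4, 2 and 0 were under that limit. No member was called for the interaction in any class (0 of 37 tests in edgeR, 7 at an unadjusted p under 0.05, 0 in DESeq2). Those 7 fell in glutamatergic neurons, GABAergic neurons, all nuclei and oligodendrocytes. There 521 of 15094, 432 of 9698, 583 of 16767 and 88 of 2219 genes were under that limit. The comparisons share groups, so their results are not independent. How many of all genes had groups of 4 mice without overlap was not counted, so a lack of overlap below is a description only.

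Mt1 was upregulated in the astrocytes of 3xTg-AD alcohol mice relative to WT control mice. It measured 719, 865, 921 and 967 CPM in WT control, 861, 956, 961 and 1104 in WT alcohol, 880.3, 914, 999 and 1022 in 3xTg-AD control and 1029.8, 1296, 1467 and 1588 in 3xTg-AD alcohol mice. The 3xTg-AD alcohol mice lay above every WT control and 3xTg-AD control mouse, and overlapped the WT alcohol mice. The means were 868 ± 108, 970.3 ± 100.1, 954 ± 67.3 and 1345 ± 242 CPM (SD, n = 4), and the change versus WT control was 0.62 (SE 0.16, adjusted p = 0.0450). Within 3xTg-AD mice alcohol gave 0.54 (SE 0.16, adjusted p = 0.254), and genotype with alcohol gave 0.51 (SE 0.16, adjusted p = 0.230). The interaction was 0.43 (SE 0.23, adjusted p = 0.976). The call was close to the threshold: without 1 mouse the adjusted p was 0.0632 (mouse 27), 0.151 (28), 0.0808 (36), 0.0511 (6), 0.0597 (18), 0.0508 (21), 0.0677 (4), 0.139 (33) or 0.148 (34). Markers of microglia in these astrocytes measured 142 ± 37.2, 176 ± 17.5, 148 ± 17.3 and 213 ± 40.0 CPM in the 4 groups in the same order, and their part in the result was not tested. The higher Mt1 was not particular to astrocytes, though edgeR called no test of it elsewhere. In all nuclei, which contain the astrocytes, Mt1 measured 246 to 299, 255 to 284, 203 to 336 and 307 to 494 CPM in that order. In GABAergic neurons it measured 188 to 262, 145 to 209, 152 to 249 and 241 to 314 CPM.

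**Figure D2:**
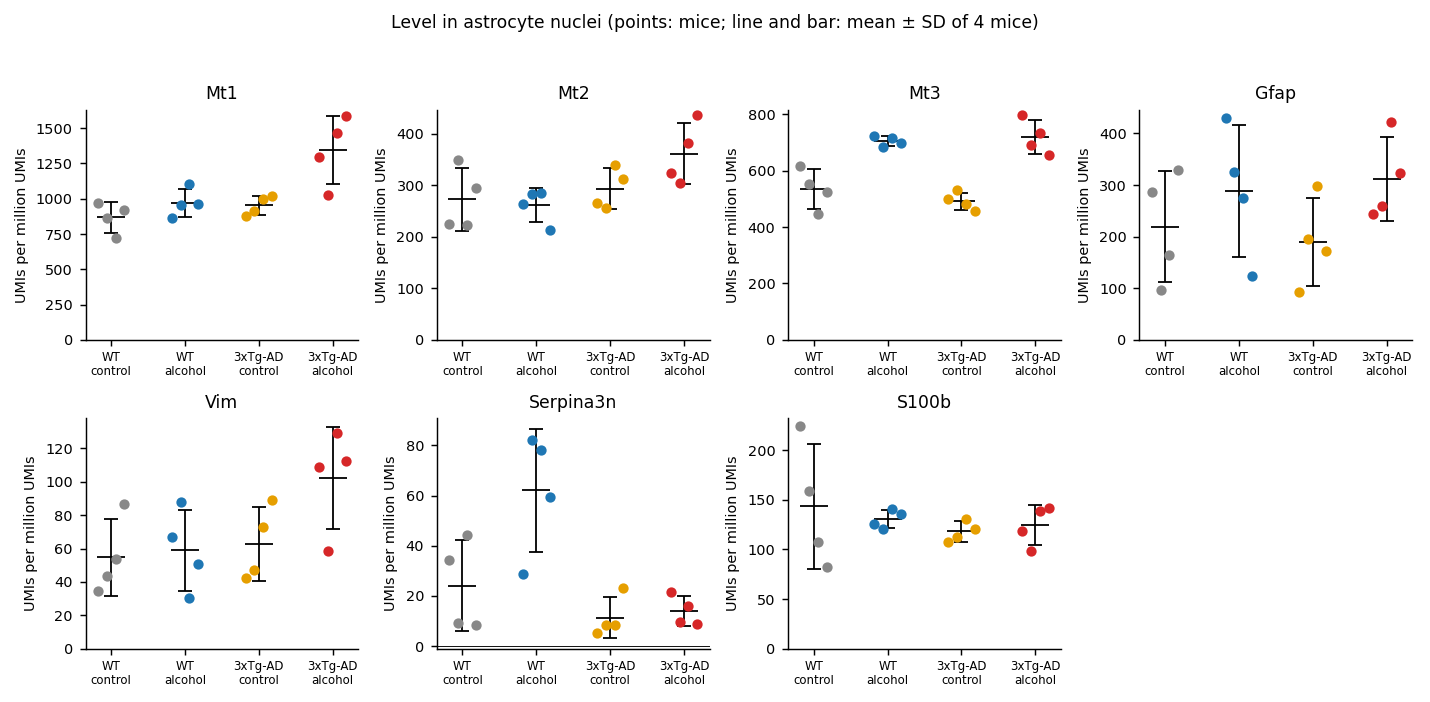
Level of each member in astrocytes (CPM), with 1 point per mouse in each of the 4 groups, the mean and the SD. Mt1 is highest in the 3xTg-AD alcohol mice (1029.8 to 1588), Mt3 is higher in both alcohol groups and Serpina3n is highest in the WT alcohol mice.

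Mt2 was also highest in the 3xTg-AD alcohol mice, though no comparison was called in astrocytes. It measured 222, 225, 294 and 348 CPM in WT control, 214, 263, 282 and 284 in WT alcohol, 256, 265, 312 and 339 in 3xTg-AD control and 305, 324, 382 and 435 in 3xTg-AD alcohol mice. After alcohol, the 3xTg-AD mice did not overlap the WT mice, with a change of 0.52 (SE 0.16, adjusted p = 0.230). Over the 16 mice Mt1 and Mt2 in astrocytes correlated with r = 0.73 (adjusted p = 0.0229 over 21 member pairs, permutation test) and a Spearman rho of 0.60 (adjusted p = 0.188, permutation test), the only pair that passed. When the 2 mice with the most extreme Mt1 were left out, r was 0.45, and it was 0.85 when the 3 mice rich in Gm42418 were left out. Within groups, with group means removed, r was 0.55 (adjusted p = 0.443, permutation test), so the relation did not pass within groups. The points share each mouse's library and depth.

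Mt3 was higher with alcohol in both genotypes in astrocytes, glutamatergic neurons and all nuclei, where the groups did not overlap, but edgeR called no test of it. These classes share libraries and all nuclei contain the other 2, so they are not separate support for one another. For alcohol in WT mice 849 of 8771 genes in astrocytes and 2045 of 15094 in glutamatergic neurons had an unadjusted p under 0.05. In 3xTg-AD mice 626 and 1736 did. In astrocytes it measured 447, 526, 554 and 617 CPM in WT control, 685, 698, 716 and 725 in WT alcohol, 459, 481, 499 and 531 in 3xTg-AD control and 657, 693, 734 and 799 in 3xTg-AD alcohol mice. The alcohol and control mice did not overlap in either genotype, and the means were 536 ± 70.5, 706 ± 18.03, 492 ± 30.4 and 721 ± 61.0 CPM (SD, n = 4). The change was 0.33 (SE 0.15, adjusted p = 0.472) in WT and 0.58 (SE 0.15, adjusted p = 0.135) in 3xTg-AD mice, and the latter was called by DESeq2 (adjusted p = 0.0233). In glutamatergic neurons Mt3 measured 159, 185, 208 and 226 CPM in WT control, 259.6, 259.9, 322 and 334 in WT alcohol, 157, 184, 187 and 208 in 3xTg-AD control and 229.6, 245, 279.5 and 349 in 3xTg-AD alcohol mice. These groups also did not overlap by exposure, with 0.54 (SE 0.15, adjusted p = 0.221) in WT, where 0.00663% of 15094 genes were called, and 0.61 (SE 0.15, adjusted p = 0.0872) in 3xTg-AD mice, where 0.245% were. The latter was also called by DESeq2 (adjusted p = 0.0152). In GABAergic neurons of 3xTg-AD mice Mt3 measured 183, 187, 200.2 and 226 CPM in controls and 251, 274, 330.4 and 381 after alcohol, a change of 0.62 (SE 0.16, adjusted p = 0.122) against a background of 0.113% called. In WT mice the GABAergic groups overlapped, at 209.7, 216, 235 and 248 CPM in controls and 229, 261.9, 262.2 and 312 after alcohol, and so did the WT groups in microglia, at 362 to 643 and 585 to 771 CPM. After each nucleus was thinned to 500 UMIs, the share of astrocytes with an Mt3 UMI was 24.5 ± 2.04%, 30.3 ± 1.25%, 20.9 ± 1.35% and 30.1 ± 3.59% in the 4 groups. Ribosomal protein RNA in astrocytes was 29151.5 ± 2309, 33199.9 ± 4723, 29918.3 ± 3777 and 31776.6 ± 6321 CPM in the same order, and its part in the Mt3 values was not tested.

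**Figure D3:**
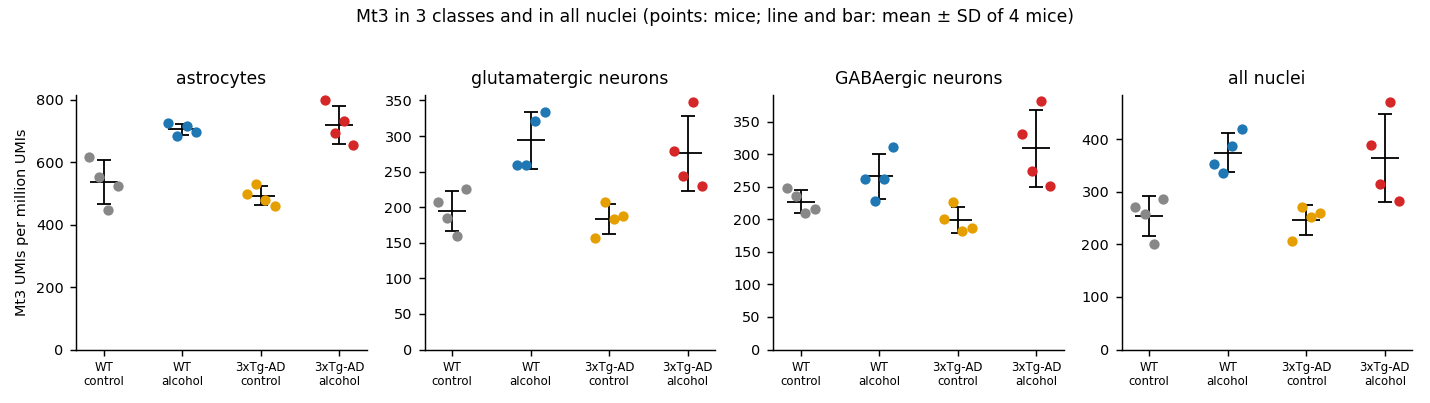
Level of Mt3 (CPM) in astrocytes and other classes, with 1 point per mouse by group and the mean ± SD. In astrocytes and in glutamatergic neurons every alcohol mouse lies above every control mouse of its genotype.

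Gfap varied widely between mice of 1 group and no comparison was called. In astrocytes it measured 96.4, 165, 286 and 329 CPM in WT control, 124, 275, 326 and 429 in WT alcohol, 92.0, 172, 196 and 298 in 3xTg-AD control and 245, 259, 323 and 422 in 3xTg-AD alcohol mice. The groups overlapped in CPM, and alcohol in 3xTg-AD mice gave 0.76 (SE 0.42, adjusted p = 0.773). The share of astrocytes with a Gfap UMI was 12.8 to 17.3% in 3xTg-AD alcohol, 8.28 to 10.4% in WT control, 5.99 to 12.3% in 3xTg-AD control and 6.71 to 15.6% in WT alcohol mice. After thinning to 500 UMIs it was 6.03 to 9.60%, 3.75 to 5.74%, 2.34 to 7.02% and 3.36 to 10.2% in that order. These shares, and their part in the Mt1, Mt2 and Vim values, were not tested. S100b measured 82.8 to 225 CPM over the 16 mice and had no unadjusted p under 0.05 in astrocytes.

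Vim was highest in the 3xTg-AD alcohol mice in astrocytes and in all nuclei, but not in the endothelial cells, where it was most abundant. There it averaged 480 ± 93.9 CPM in WT control, 396 ± 186 in WT alcohol, 582 ± 133 in 3xTg-AD control and 530 ± 139 in 3xTg-AD alcohol mice (SD, n = 4). In the mural cells of mice with at least 10 such nuclei, 3 WT alcohol mice measured 282 to 962 CPM, 2 3xTg-AD alcohol mice 0 and 612, 4 3xTg-AD control mice 62.4 to 102 and 1 WT control mouse 117, the controls on 1 or 2 UMIs each. In astrocytes Vim measured 34.5, 43.6, 53.8 and 86.9 CPM in WT control, 30.5, 50.9, 66.8 and 87.7 in WT alcohol, 42.0, 46.9, 72.8 and 89.2 in 3xTg-AD control and 58.7, 109, 113 and 129 in 3xTg-AD alcohol mice, so that mouse 31 alone of the last group lay within the others. The change versus WT control was 0.89 (SE 0.28, adjusted p = 0.154). Leaving out mouse 31 or mouse 36 turned this into a call (adjusted p = 0.00922 and 0.0437). In all nuclei, Vim measured 6.88, 8.21, 9.21 and 9.33 CPM in WT control, 6.27, 9.89, 10.5 and 11.6 in WT alcohol, 8.15, 10.5, 12.1 and 12.2 in 3xTg-AD control and 12.1, 13.4, 16.2 and 20.5 in 3xTg-AD alcohol mice. There the 3xTg-AD alcohol mice lay above every WT control mouse and the change was called (0.86, SE 0.20, adjusted p = 0.0255, with 4.06% of 16767 genes called). The call was lost without mouse 28, 4 or 33 (adjusted p = 0.0736, 0.0549 and 0.0890). In such a sum over all nuclei, a change in the number of cells of a type and a change of RNA per cell cannot be told apart. Astrocytes made up 4.92 ± 0.329%, 4.87 ± 0.531%, 5.52 ± 0.218% and 7.10 ± 0.639% of nuclei in the 4 groups, and their part in the Vim result was not tested.

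Serpina3n showed the largest differences among the members, and it was highest in the WT alcohol mice in astrocytes and neurons alike. In glutamatergic neurons it measured 1.11, 2.63, 10.4 and 14.5 CPM in WT control, 19.7, 29.3, 31.9 and 35.1 in WT alcohol, 1.52, 2.34, 3.03 and 3.14 in 3xTg-AD control and 1.76, 2.04, 2.90 and 3.40 in 3xTg-AD alcohol mice. Every WT alcohol mouse lay above every other mouse, and the 3xTg-AD groups overlapped each other. After alcohol, Serpina3n was downregulated in 3xTg-AD versus WT mice by -3.50 in glutamatergic neurons (SE 0.51, adjusted p = 0.00290, with 0.722% of genes called). In GABAergic neurons the values were 2.56, 4.05, 9.31 and 12.5 CPM in WT control, 26.8, 33.97, 40.1 and 40.5 in WT alcohol, 0, 2.20, 4.19 and 10.4 in 3xTg-AD control and 0, 2.81, 3.08 and 6.06 in 3xTg-AD alcohol mice. The corresponding change was -3.63 (SE 0.48, adjusted p = 5.3e-06, with 0.412% of 9698 genes called). In all nuclei it was -3.12 (SE 0.46, adjusted p = 0.00307, with 0.942% called). The 3 calls held when any 1 mouse was left out.

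In WT mice alcohol was followed by upregulation of Serpina3n in GABAergic neurons (2.38, SE 0.41, adjusted p = 0.00370, with 0.0206% of genes called), in which the 2 WT groups did not overlap. With Gm42418 as a covariate the adjusted p was 0.242. DESeq2 gave a change of 2.38 and an unadjusted p of 1.59e-06 with no adjusted p. Without 1 mouse the adjusted p ranged from 0.00204 to 0.0490, the highest without WT control mouse 27, when the change was 2.08. That mouse held the lowest Serpina3n of its group, the olfactory bulb markers given above and 9.45% GABAergic nuclei, against 4.26 to 4.95% in the other WT controls. WT control mouse 36 was also low, at 4.05 CPM against 9.31 and 12.5 in mice 26 and 28, with 350 CPM of olfactory bulb markers. In glutamatergic neurons mice 27 and 36 measured 1.11 and 2.63 CPM, and mice 26 and 28 10.4 and 14.5. The WT control level was thus uneven, and the reason was not tested. The alcohol change in WT mice was 1.95 (SE 0.46, adjusted p = 0.196) in glutamatergic neurons and 1.31 (SE 0.43, adjusted p = 0.333) in astrocytes. In 3xTg-AD mice it was 0.03 (SE 0.62) in glutamatergic and -0.71 (SE 0.79) in GABAergic neurons. The difference between these alcohol changes was -3.09 in GABAergic neurons (SE 0.95, adjusted p = 0.991). It did not pass, so the alcohol change was not shown to differ between the genotypes. Without alcohol, the genotype difference was -1.57 in glutamatergic neurons (SE 0.56, adjusted p = 0.423).

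In astrocytes Serpina3n measured 8.28, 9.33, 34.5 and 44.3 CPM in WT control, 28.6, 59.4, 78.3 and 82.2 in WT alcohol, 5.26, 8.32, 8.52 and 23.4 in 3xTg-AD control and 8.67, 9.59, 15.9 and 21.5 in 3xTg-AD alcohol mice. WT alcohol mice were above every 3xTg-AD alcohol mouse, with a change of -2.06 for 3xTg-AD versus WT mice after alcohol (SE 0.41, adjusted p = 0.0326). The call was lost without mouse 7 (adjusted p = 0.0898), 17 (0.0654), 18 (0.122), 13 (0.0521), 14 (0.0503), 31 (0.135), 33 (0.0938) or 34 (0.0879), and by DESeq2 (0.0716). The 16 mice gave 225 Serpina3n UMIs in astrocytes, so depth limits these values. In OPC the WT alcohol mice measured 30.99, 48.3, 64.2 and 67.6 CPM and the other mice at most 36.2, and in microglia 0, 33.996, 36.9 and 42.9 and at most 14.5, on 0 to 7 UMIs per mouse, too few for a test. The WT alcohol group was the highest on average in these classes, though not in every mouse. Mouse 7 had 0 UMIs in microglia, and mouse 17 in OPC and mouse 6 in astrocytes lay below a WT control mouse. The classes come from the same libraries, so they are not separate support for one another, and the part of RNA from other cells was not tested. The nearest genes on chromosome 12 with at least 5 CPM were Ppp4r4, at 24.2 to 39.4 CPM over the mice, and Dicer1, at 77.1 to 123 CPM. Serpina3n was the only Serpina3 gene in the table.

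**Figure D4:**
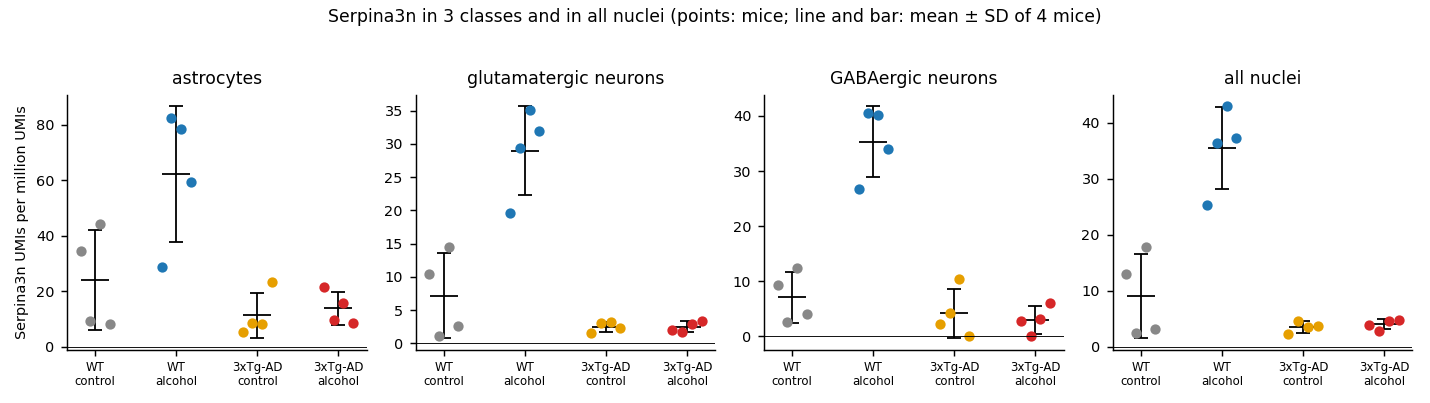
Level of Serpina3n (CPM) in astrocytes, glutamatergic neurons, GABAergic neurons and all nuclei, with 1 point per mouse by group and the mean ± SD. In both neuron classes and in all nuclei the WT alcohol mice lie above all other mice.

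Over the other classes and all nuclei, 5 of 180 member tests were called, 4 of them Serpina3n and 1 Vim, with 52 at an unadjusted p under 0.05. DESeq2 called 13. Over all genes, 0 to 4.06% were called in these classes and comparisons, with the highest share in all nuclei for 3xTg-AD alcohol versus WT control. Genes at an unadjusted p under 0.05 ran from 10 of 455 (interaction in endothelial cells) to 3370 of 16767 (3xTg-AD alcohol versus WT control in all nuclei). Oligodendrocytes, OPC, microglia and endothelial cells gave 0 calls of 66 member tests in edgeR, with 10 at an unadjusted p under 0.05, and 0 in DESeq2. At most 0.27, 0.569, 0.849 and 1.76% of all genes were called in these 4 classes, so the count of calls is near the background. At an unadjusted p under 0.05 there were at most 209 of 2219, 204 of 2108, 302 of 2710 and 48 of 455 genes in a comparison. Mural cells and VLMC were not tested because too few mice had 10 nuclei of the class.

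Astrocytes with Gfap were compared with the others within each mouse, because the members may mark the same nuclei. Gfap UMIs chose the nuclei, 741 with at least 1 UMI and 5686 with none (20 to 105 positive per mouse), so Gfap was not tested. Of 5264 genes tested 763 were higher in Gfap-positive nuclei (14.5%) and 630 lower. The filter on low counts can pass a gene on its level in the positive nuclei alone. A gene low in the negative nuclei, such as Vim, can enter the test that way. Vim was higher by 2.99 (SE 0.14), with medians over mice of 254 and 33.5 CPM. Mt2 was higher by 1.28 (SE 0.079), at 561 and 241 CPM, and Mt1 by 0.79 (SE 0.061), at 1533 and 873 CPM. Mt3 was higher by only 0.23 (SE 0.069, adjusted p = 0.00722), a call that was lost when nuclei were thinned to 500 UMIs, which leaves fewer counts, with a change of 0.19 (adjusted p = 0.424). S100b did not pass (-0.22, adjusted p = 0.238). Serpina3n fell below the filter on low counts, but was higher in 15 of 16 mice, with medians of 47.5 and 7.55 CPM. That count rests on few UMIs, as the positive nuclei of mice 27, 36 and 13 held 1 Serpina3n UMI each. The split also moved astrocyte identity markers, as 6 of the 12 rule markers were higher and 5 lower, and 3 of the 5 held-out markers were higher and 2 lower. The genes with the smallest p were Myoc (5.18) and the water channel gene Aqp4 (2.48), a rule marker, both named after their values were seen. Gfap-positive nuclei were deeper, with a median of 1136 to 2783 UMIs per mouse against 896 to 1602.

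**Figure D5:**
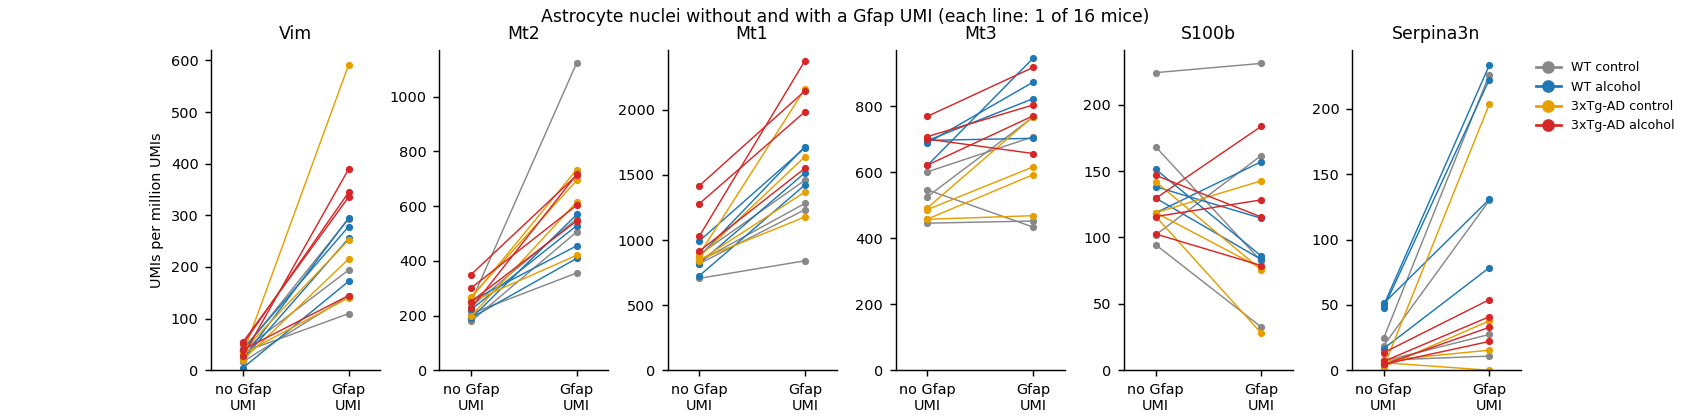
Level of each member (CPM) in Gfap-negative and Gfap-positive astrocyte nuclei, with 1 line per mouse. Vim, Mt2 and Mt1 are higher in the positive nuclei, whereas S100b shows no common direction.

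The other reactive astrocyte genes were counted in the same 2 ways, within mice by Gfap and between groups. Of the disease-associated astrocyte list of 16 genes, 13 passed the filter on low counts. All 13 were higher in Gfap-positive nuclei, against 14.5% of all tested genes. They included Id3 (2.25), Igfbp5 (2.56), Cd9 (2.34), Apoe (1.38), a lipid carrier, and Clu (1.03), a secreted chaperone. Complement gene C4b (2.89) and the transcription factor gene Stat3 (1.10) were also higher, the 2 tested of 15 pan-reactive genes. Of 11 A1 reactive genes 0 were tested. Because the filter can pass a gene on the positive nuclei alone, these counts hold for the tested genes only. The disease-associated and reactive lists name genes of reactive astrocytes, in which Gfap rises. The split on Gfap therefore favors them in advance, and their counts are a description only. Of the S100 family 4 of 5 were higher, of metal ion handling genes 3 of 12, including Ftl1 (0.63), of glucocorticoid targets 2 of 4, and of other intermediate filament genes 0 of 4 and A2 reactive genes 0 of 1. Between groups, metal ion handling genes gave 0 calls of 24 tested in every comparison in astrocytes. Of all 8771 genes tested 0 to 0.673% were called there, with the highest share in 3xTg-AD alcohol versus WT control. In 3xTg-AD alcohol versus WT control, C4b was higher by 1.51 (SE 0.30, adjusted p = 0.0297), 1 of 2 tested pan-reactive genes, and the MHC class I gene H2-D1 by 2.42 (SE 0.50, adjusted p = 0.0297), 1 of 2 tested A1 reactive genes. Of 15 tested disease-associated genes Cst3, which encodes cystatin C, rose by 0.68 (SE 0.16, adjusted p = 0.0297) and Fxyd1 by 0.79 (SE 0.17, adjusted p = 0.00900). The list had a median change of 0.36 against -0.0049 over all genes, a shift that was not tested. The list median was 0.38 for alcohol in WT mice and 0.33 for alcohol in 3xTg-AD mice, with 0 genes called in both. For genotype with and without alcohol it was 0.00046 and 0.069. In these 4 comparisons 7, 7, 3 and 1 of the 15 genes had an unadjusted p under 0.05. Of all 8771 genes 849, 626, 722 and 564 did. Markers of microglia in the astrocyte sums were 142 ± 37.2 CPM in WT control and 213 ± 40.0 CPM in 3xTg-AD alcohol mice, and their part in the C4b, H2-D1, Cst3 and Fxyd1 results was not tested. The A2, intermediate filament, S100 and glucocorticoid lists gave 0 calls in that comparison in edgeR. They had 0 of 1, 1 of 6, 1 of 5 and 4 of 8 tested genes at an unadjusted p under 0.05, against 1052 of all 8771 genes. The glucocorticoid list had a median change of -0.53, that is lower in the 3xTg-AD alcohol mice.

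The genes whose levels over the 16 mice were most like each member in astrocytes were found among 8770 genes by Pearson's r, as a description. They were Slc44a2 (0.83), Lgals3bp (0.80) and F3 (0.79) for Mt1, Pxmp2 (0.80) for Mt2, Gm10076 (0.84) for Mt3, Clu (0.85) for Gfap, Fbxo22 (0.81) for Vim, Pcmt1 (0.84) for Serpina3n and Uqcc1 (0.72) for S100b.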

How the data were processed

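Per the labels and the study's methods, nuclei of the medial prefrontal cortex were captured with 10x Chromium 3′ chemistry, and the authors aligned reads with Cell Ranger 6.1.1, which uses STAR, to mm10. The deposited table holds raw UMI counts per gene and nucleus, so nuclei share a library per mouse and were summed. The members and gene lists were chosen with earlier results of these data known. Each nucleus took the class whose marker score was at least 0.2 and at least 2 times the next score, with at least 3 marker UMIs. Only classes with at least 3 marker UMIs counted as next. No doublet caller was run, and nuclei that failed that margin were left unassigned. A nucleus with fewer than 3 marker UMIs of another class could still be assigned. Sums per mouse with at least 10 nuclei were fitted in R 4.3.3 with edgeR 4.0.16 (TMM, filter on low counts, quasi-likelihood) over all genes, with Benjamini-Hochberg adjustment. DESeq2 1.42.0, other filters, other class rules, a Gm42418 covariate and leaving out each mouse were alternatives. Class order and correlations used permutation tests with 100000 resamples, or all, in Python 3.11.15 with scipy 1.17.1. The Gfap split used mouse as a block. The members and the genes called in the fixed lists, or failing that the 2 of smallest p, were named.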

Additional observations from a re-analysis of the deposited data

Results flagged for a closer look

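Of 84 groups of 4 mice checked (each member in 3 classes and 4 groups), 4 held a mouse far from the other 3, where chance gives about 1 in 20. Mt2 in glutamatergic neurons of 3xTg-AD alcohol mice was 42.7 CPM in mouse 33 and 33.01, 33.05 and 34.4 in the others. Mt2 in GABAergic neurons of WT control mice was 14.9 CPM in mouse 36 and 39.1 to 42.2 in the others. Vim in GABAergic neurons of WT alcohol mice was 5.86 CPM in mouse 18 and 3.17 to 3.52 in the others, on 2 to 5 UMIs per mouse. S100b in glutamatergic neurons of 3xTg-AD control mice was 35.5 CPM in mouse 12, which is 1 of the 3 mice with the most Gm42418, and 48.8 to 50.4 in the others.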

How the results depend on the processing

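Over 49 single results, 1179 values under alternatives were computed: 1117 stayed on the same side of the threshold, 29 lost a call, 33 gained one and 0 changed direction. Most of the 49 were not called, and for those the same side means still not called. The 29 lost calls fell on the called results alone, such as Mt1 and Serpina3n in astrocytes. Their losses without 1 mouse, and that of Serpina3n by DESeq2, are given above. Losses under the class rules, or with only the 2 groups compared, enter the counts below without the gene. DESeq2 gave no adjusted p for 2. Where a count below moved, the cause was not tested, except that leaving out mice leaves fewer samples. The calls among members in astrocytes, 2 as reported, were 6 with no filter on low counts, 1 with the stricter class rule, 1 with the looser class rule and 1 when only the 2 groups compared were fitted, and 0 to 3 when 1 mouse was left out. The calls in the other classes and all nuclei, 5 as reported, were 13 with DESeq2, 9 with the Gm42418 covariate, 2 with the stricter rule, 3 with the looser rule, both of which were not run for all nuclei, 11 without the 3 mice with the most Gm42418, and 4 to 6 when 1 mouse was left out. Endothelial cells could not be tested under the stricter rule. In the Gfap split the calls among members, 4 as reported, were 2 when nuclei were thinned to 500 UMIs, where Vim and S100b fell below the filter, and 4 without any 1 mouse. Of the neighbouring class pairs, 9 as reported, 5 passed under the stricter rule. Of the correlations, 1 as reported, 0 passed under the stricter rule and 0 after group means were removed. No paired analysis was possible because the groups share no replicate numbers. Depth limits Serpina3n, Vim and Gfap outside the abundant classes, where many mice held few UMIs.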
